A study of Mus musculus with 4 samples.

Results

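A set of 32 genes of glycolysis and of the response to low oxygen were followed across single macrophages and monocytes of the mouse heart. The members were chosen by name, as 32 symbols among the 31053 rows of the deposited feature table, by a rule that reads no measured value. The list itself was put together with earlier results of these data known. They comprised 2 glucose transporters, 3 hexokinases, 6 genes of upper glycolysis, 5 of lower glycolysis, 3 of the lactate and pyruvate branch, 4 of oxygen sensing and 9 other hypoxia targets. All 32 had unique molecular identifiers (UMIs, counted transcripts) in every library. A further 43 genes of the same pathways served as a comparison list.

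Cells were sorted from hearts of CSF1R-EGFP+ mice aged 12 to 16 weeks, as EGFP-positive and Ly6G-negative, and sequenced with 10x Genomics 3′ chemistry. EGFP in these mice is driven by the Csf1r promoter, which is active across monocytes, macrophages and some dendritic cells. The baseline library (no surgery) pooled 3 hearts. The 3 infarct libraries, infarct 1 to infarct 3, came from hearts collected 7 days after left coronary artery ligation, with the non-infarcted zone cut away. Since the baseline was a single library, infarct and baseline were compared without a test, and its intervals (exact Poisson) cover counting error only. Tests were run among cells of the 3 infarct hearts.

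Glycolysis splits glucose into pyruvate in the cytosol and yields ATP without oxygen. Lactate dehydrogenase turns pyruvate into lactate, which leaves the cell through monocarboxylate transporters. When oxygen is short, prolyl hydroxylases (Egln genes) and the Vhl ubiquitin ligase no longer clear the α subunits of the hypoxia-inducible factors, and HIF-1 then activates glycolytic enzymes, glucose transporters, mitophagy receptors and Vegfa. Inflammatory stimuli can switch on the same genes in macrophages when oxygen is present.

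HIF binds a short core, ACGTG or GCGTG, in the DNA near its targets. Promoters of the members were read from the RefSeq table of GRCm38.p6, the patched form of mm10, each spanning 250 bases before to 50 after a start site. Of the 32 members 28 were matched there (Slc2a3, Bnip3l, Ero1l and Ndrg1 were not). ACGTG was searched on both strands and occurred in at least 1 promoter of 20 of the 28 members, against 21.8% of all 27025 genes in the table and 16 of the 38 matched comparison genes. GCGTG, also on both strands, occurred in 15 of the 28 members, in 25 of the 38 comparison genes and in 35.2% of all genes. ACGTG is also part of the E-box CACGTG, which other factors bind and which occurred in promoters of 4 members (Bnip3, Hif1a, Ldha and Pfkfb3) and of 8.09% of all genes. These matches describe letters in the window, not bound sites. The stretches below come from members that led the comparisons described further on and held an ACGTG match. Pdk1 and Pfkl, also among the leading members, held GCGTG but no ACGTG in their promoters and are not printed. Ero1l, another leading member, had no matched promoter. Each is written 5′ to 3′ on the strand of the gene, with ACGTG or its reverse complement in capitals.
Pgk1 (chrX:106186925-106186998, plus strand): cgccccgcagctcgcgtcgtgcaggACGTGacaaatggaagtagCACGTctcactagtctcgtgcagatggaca
Ldha (chr7:46845731-46845799, plus strand): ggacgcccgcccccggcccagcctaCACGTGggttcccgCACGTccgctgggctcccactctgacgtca
Slc2a1 (chr4:119108684-119108738, plus strand): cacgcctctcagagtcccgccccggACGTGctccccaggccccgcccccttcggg
Slc16a3 (chr11:120949015-120949082, plus strand): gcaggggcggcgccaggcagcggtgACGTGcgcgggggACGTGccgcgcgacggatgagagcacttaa
Bnip3 (chr7:138909584-138909639, minus strand): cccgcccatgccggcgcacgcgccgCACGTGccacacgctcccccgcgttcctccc
Hif1a (chr12:73907772-73907826, plus strand): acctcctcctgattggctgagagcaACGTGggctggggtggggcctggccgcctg
Egln3 (chr12:54204074-54204124, minus strand): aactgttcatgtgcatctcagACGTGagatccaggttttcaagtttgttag
In Slc16a3 the matches began 27 and 14 bases before the start site, in Slc2a1 36 bases and in Egln3 229 bases before it. In Ldha the printed stretch held 3 overlapping or neighbouring matches, the first 48 bases upstream. The Hif1a stretch shown had its match 70 bases before the start site, and the E-box of Hif1a lay further upstream. In Pgk1, Slc2a1, Slc16a3 and Egln3 no match was part of an E-box.

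The libraries held 71093963 to 97944428 UMIs from 10144 to 10804 cells, with a median of 6398.5 UMIs per kept cell at baseline and 8469.5 to 8556.5 in the infarct hearts. Macrophage markers were present throughout: C1qa stood at 3719 to 5671 CPM (UMIs of a gene scaled to a common library total), and the monocyte and macrophage gates described below took in 90.1% to 93.1% of cells with at least 2000 UMIs. Infarct 1 stood apart for most members, as shown next. Signs of other sources also differed between libraries. The summed cardiomyocyte markers stood at 68.8 CPM at baseline and at 28.7 to 56.1 CPM in the infarct hearts. The summed haemoglobin genes stood at 89.2 CPM at baseline, at 167 CPM in infarct 3 and under 1 CPM in the other two infarct libraries. Immediate-early and heat-shock genes, which rise during tissue digestion, summed to 7120 CPM at baseline and to 4151 to 4902 CPM in the infarct hearts. The part of these differences in the results was not tested. Between 26 and 34 cell barcodes were shared by each pair of libraries.

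To ask how the members differed between infarcted and uninjured hearts, UMIs were summed over all kept cells of each library. The 32 members together stood at 3057 CPM at baseline (95% interval 3044 to 3070), 5634 CPM in infarct 1, 4062 in infarct 2 and 4010 in infarct 3. All infarct hearts lay above baseline, and infarct 1 lay well above the other two. Without Gapdh, the most abundant member, the order was the same: 2380 CPM at baseline, and 4359, 3077 and 3068 CPM in the infarct hearts. The difference was uneven across the pathway. Oxygen-sensing genes and the lactate and pyruvate branch were above baseline by 1.58 and 1.83 times on average, and lower glycolysis by 1.57 times, whereas the hexokinases stood at 0.86 of their baseline level on this scale and at 1.04 with TMM scaling. Scaling moved the median log2 ratio of all genes from -0.21 in CPM to 0.09 with TMM (trimmed mean of M values).

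In all, 12 of the 32 members lay above baseline in all 3 infarct hearts with a mean at least 1.5 times the baseline level, and none met the mirror rule. Among all 8249 genes with at least 10 CPM in a group, 5.53% met the rule upward and 23.1% downward. With TMM scaling 18 members lay above and none below, against 16.9% and 9.73% of genes. The 12 were Slc2a1, Aldoa, Tpi1, Gapdh, Pgk1, Pgam1, Ldha, Slc16a3, Hif1a, Bnip3, Ndrg1 and Mif. Leaving out infarct 1 lowered the count to 7, without Tpi1, Gapdh, Pgk1, Slc16a3 and Bnip3, and brought Hk1 under the mirror rule.

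**Figure D1:**
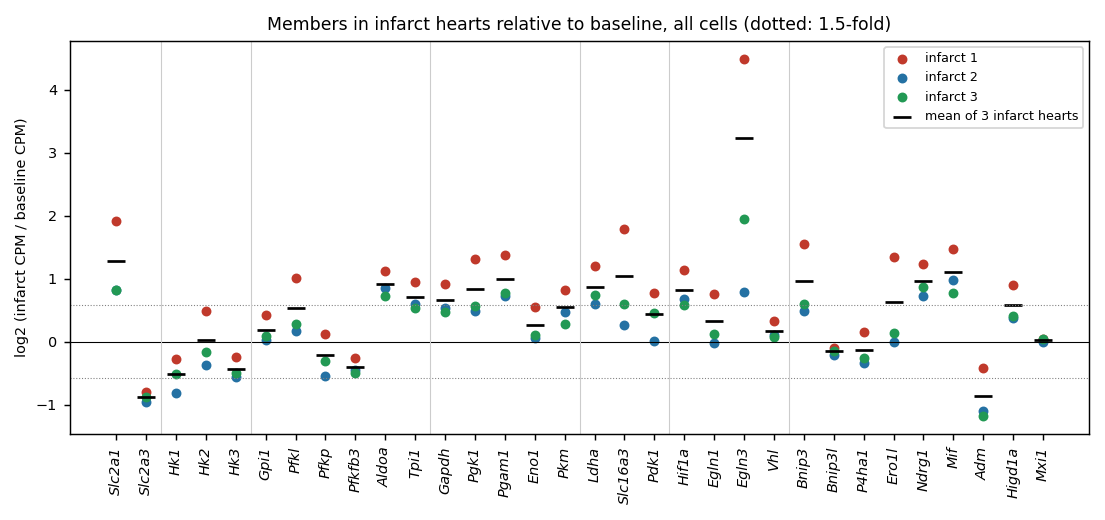
Log2 ratio of each member's CPM in each infarct heart to its CPM in the baseline library, over all kept cells. Points are the 3 infarct hearts, black bars their mean, dotted lines 1.5-fold, and vertical lines separate the steps of the pathway. Infarct 1 was the highest of the infarct hearts for all 32 members, Egln3 reached 4.49 there, and Slc2a1 had the same ratio in infarct 2 and infarct 3, so that those points overlap.

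The glucose transporters differed in direction. Slc2a1 (GLUT1) stood at 10.5 CPM at baseline (95% interval 9.73 to 11.3) and at 39.6, 18.5 and 18.5 CPM in infarct 1, 2 and 3. Slc2a3 (GLUT3) stood at 5.61 CPM at baseline and at 3.22, 2.89 and 3.06 CPM in the infarct hearts, so that every infarct heart lay above baseline for Slc2a1 and below it for Slc2a3. Of the hexokinases, which trap glucose inside the cell, Hk1 stood at 35.9 CPM at baseline and at 29.7, 20.5 and 25.1 CPM after infarction. Hk3 stood at 23.5 CPM and at 19.8, 15.9 and 16.5 CPM, and the means of both over the 3 infarct hearts stayed within 1.5-fold of baseline, although Hk1 in infarct 2 lay further below. Hk2 stood at 52.2 CPM at baseline and at 73.4, 40.5 and 46.4 CPM in the infarct hearts, on both sides of baseline.

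In the body of the pathway, the aldolase Aldoa stood at 228 CPM at baseline and at 496, 413 and 378 CPM in the infarct hearts. The phosphoglycerate kinase Pgk1, the first ATP-producing enzyme, stood at 101 CPM at baseline and at 250, 141 and 148 CPM after infarction. Pgam1 (phosphoglycerate mutase) stood at 130 CPM and at 337, 215 and 222 CPM, and Gapdh at 677 CPM and at 1276, 986 and 942 CPM. Eno1, Gpi1 and Pkm were above baseline in each infarct heart with means of 1.20, 1.14 and 1.46 times. Pfkp, an isoform of phosphofructokinase, and Pfkfb3, which makes its activator fructose 2,6-bisphosphate, had infarct means of 50.5 ± 12.1 and 36.1 ± 3.24 CPM (SD, n = 3) against 58.5 and 47.6 CPM at baseline, and with TMM scaling the mean of Pfkp lay at 1.05 times baseline. Several of these enzymes, Gapdh, Eno1, Ldha, Pgk1, Aldoa and Tpi1 among them, have processed pseudogenes, and how reads shared with those copies were assigned bears on their levels. A second row named Aldoa held 1 UMI in all, and the near-copy Eno1b 103 to 165 UMIs per library.

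At the exit of the pathway, Ldha (lactate dehydrogenase A) stood at 183 CPM at baseline and at 421, 278 and 305 CPM. Slc16a3 (MCT4, which exports lactate) stood at 27.1 CPM at baseline and at 93.7, 32.5 and 40.9 CPM after infarction, so that its mean of 2.05 times baseline was carried mainly by infarct 1. Pdk1, which encodes a kinase that inhibits pyruvate dehydrogenase, stood at 12.7 CPM at baseline and at 21.7, 12.7 and 17.4 CPM, with infarct 2 at the baseline level.

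Of the oxygen-sensing genes, Hif1a stood at 86.0 CPM at baseline and at 189, 137 and 129 CPM, above it in every infarct heart. Egln3, a prolyl hydroxylase that is itself a HIF target, was near the limit of detection at baseline, with 49 UMIs or 0.725 CPM (95% interval 0.536 to 0.958), and reached 16.3 CPM in infarct 1 and 1.26 and 2.79 CPM in infarct 2 and 3. Its infarct mean stayed under the 10 CPM minimum. Egln1 stood at 45.2 CPM against 76.8, 44.5 and 49.3 CPM, and Vhl at 14.1 CPM against 17.8, 15.3 and 14.8 CPM. Among the other targets, Bnip3, a receptor for mitophagy, stood at 18.0 CPM at baseline and at 52.9, 25.4 and 27.2 CPM after infarction, and Mif, a cytokine, at 111 CPM and at 307, 218 and 190 CPM. The related Bnip3l stood at 152 CPM at baseline and lower in each infarct heart (142, 131 and 138 CPM), although with TMM scaling its infarct mean was 1.10 times baseline. The oxidoreductase Ero1l reached 63.7 CPM in infarct 1 and stood at 24.9 and 27.6 CPM in infarct 2 and 3, against 25.01 CPM at baseline. Adm, encoding adrenomedullin, was under 1 CPM in all 4 libraries.

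Cells with at least 2000 UMIs were next divided by marker genes, none of them a member, into gates. Each cell went to the first gate it met. The granulocyte, dendritic, cycling, interferon-response and Saa3 Arg1 gates came before the monocyte and macrophage subtypes. Of 16 gates, 12 held at least 20 cells in each infarct heart. For each of these, the sum over its cells was set against the sum over all other gated cells of the same heart, with edgeR's quasi-likelihood test, the heart as a block and an adjusted p-value under 0.01. The 12 comparisons share cells, since each gate is part of the others' comparator. Over all gates 67 member-by-gate pairs of 384 were higher and 77 lower.

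The Saa3 Arg1 gate, named after the acute-phase gene Saa3 and the arginase Arg1 that define it together with the scavenger receptor Marco, held 998, 146 and 592 cells of the infarct hearts and only 7 of the baseline library. Arg1 is itself known to respond to low oxygen. The summed members reached 10902, 10824 and 7568 CPM there, the highest of the 12 gates in each of the 3 hearts. The gate of MHC-II-high, Gpnmb-low macrophages had the lowest sum in infarct 2 and 3, at 3300 and 3177 CPM, and 4464 CPM in infarct 1. In all, 14 members had their highest level in the Saa3 Arg1 gate in all 3 hearts. The share of all genes with this pattern was not computed. The exceptions with another gate on top in all 3 hearts were Slc2a3 (granulocyte gate) and Pfkp and Vhl (dendritic gate).

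**Figure D2:**
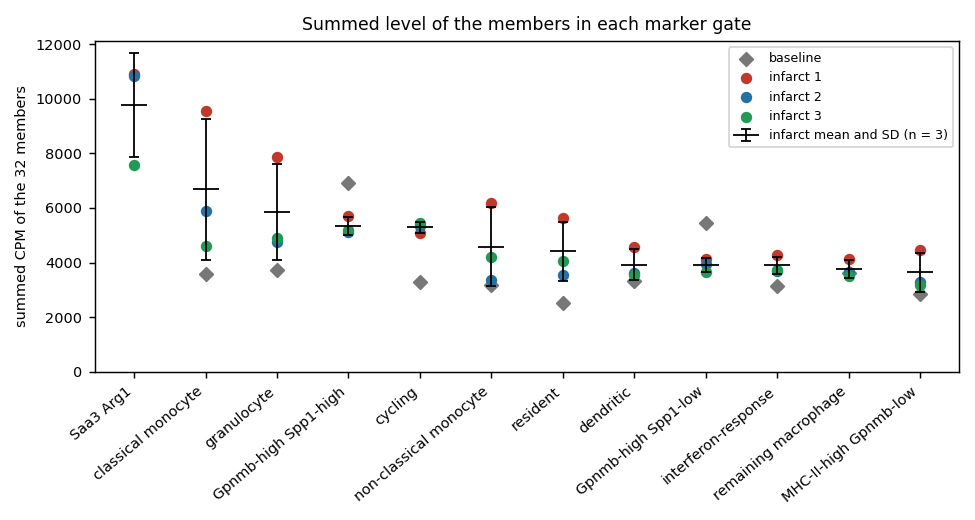
Summed CPM of the 32 members in each of the 12 gates, with a point for each library and the mean and SD of the 3 infarct hearts in black. Gates are ordered by the infarct mean, from 9764 CPM in the Saa3 Arg1 gate to 3647 CPM in the MHC-II-high Gpnmb-low gate. The baseline point of the Saa3 Arg1 gate (7 cells) is left out, and in both Gpnmb-high gates the baseline library lay above all infarct hearts.

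In the Saa3 Arg1 gate 25 of the 32 members were higher than in the other gated cells and 1 was lower, where 10.9% of all 13478 genes tested were higher and 9.58% lower. The median log2 fold change of the members was 1.00, against -0.06 over all genes. All 5 genes of lower glycolysis, all 3 hexokinases and all 3 genes of the lactate and pyruvate branch were higher, as were 5 of 6 in upper glycolysis, 3 of 4 in oxygen sensing and 5 of 9 other targets. The count was 24 to 26 when any one heart was left out.

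The largest difference was that of Egln3. It stood at 68.1, 9.94 and 11.9 CPM in the gate and at 10.9, 1.12 and 2.12 CPM in other cells of infarct 1, 2 and 3. Infarct 1 was high in both, yet the gate lay above the comparator in each heart, with a log2 fold change of 2.62 ± 0.16 (SE) and an adjusted p of 8.99e-07. Slc16a3 stood at 270, 181 and 132 CPM in the gate against 73.6, 28.8 and 32.7 CPM elsewhere (log2 fold change 2.10 ± 0.13, adjusted p = 1.23e-06). The groups did not overlap for Slc16a3. The share of all genes without overlap was not computed, here or for the members below.

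Pdk1 stood at 70.5, 48.4 and 58.0 CPM against 16.1, 11.7 and 14.2 CPM, a log2 fold change of 2.01 ± 0.12. Pgk1 stood at 660, 695 and 418 CPM against 203, 123 and 125 CPM, a log2 fold change of 1.90 ± 0.15. For both, every heart's gate level lay above every heart's comparator level. Ldha showed the same separation, at 974, 981 and 762 CPM against 355, 253 and 263 CPM (1.57 ± 0.13).

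Hif1a stood at 386, 648 and 338 CPM in the gate against 165, 123 and 111 CPM, a log2 fold change of 1.67 ± 0.17. The phosphofructokinase isoform Pfkl, at 155, 101 and 98.4 CPM against 45.7, 29.9 and 29.0 CPM, had a log2 fold change of 1.69 ± 0.10, and the isoform Pfkp, at 84.8, 84.8 and 75.2 CPM against 58.6, 37.9 and 43.6 CPM, one of 0.74 ± 0.12. For Hif1a and both isoforms every heart's gate level lay above every heart's comparator level. The difference between the isoforms was not tested. Slc2a1 was higher at 84.2, 65.6 and 34.2 CPM against 34.1, 16.9 and 16.8 CPM, with infarct 3 of the gate at the level of the infarct 1 comparator. Slc2a3 alone was lower, at 0.848, 0 and 0.344 CPM against 3.15, 2.96 and 3.21 CPM, a comparison that rests on 9 UMIs in the gate (log2 fold change -2.54 ± 0.48).

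The other 6 members did not pass the test in this gate. Pfkfb3, Vhl, Ndrg1 and Mxi1, the last an antagonist of Myc, had log2 fold changes of 0.33, -0.01, -0.18 and 0.11. Bnip3l had 0.43 with an adjusted p of 0.024. Adm had 27 UMIs in the gate and an adjusted p of 0.036.

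Of the comparison list, 12 of 37 genes tested were higher in the Saa3 Arg1 gate and 3 were lower. The highest were Ak4, an adenylate kinase, with a log2 fold change of 3.87 ± 0.37, Ankrd37 with 2.31 ± 0.14 and the transporter gene Slc2a6 with 2.30 ± 0.15, each higher in 3 of 3 hearts. The isoforms Eno3 and Ldhb and the regulator Pfkfb4 were lower, with log2 fold changes of -1.35, -0.93 and -0.78. The immediate-early and heat-shock genes summed to 1787 to 2684 CPM in this gate, below the 4151 to 4902 CPM of all cells, and the cardiomyocyte markers to 5.45 to 11.3 CPM. Their part in the result was not tested.

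By summed level, classical monocytes (Ly6c2, Plac8 and Chil3 high, C1q low) ranked 2 in infarct 1 and infarct 2 but 5 in infarct 3. In this gate of 827, 621 and 458 cells 12 members were higher and none lower, where 14.2% of genes were higher and 15.2% lower, and the median log2 fold change was 0.50 against -0.07 over all genes. Slc16a3 stood at 256, 93.5 and 74.2 CPM against 78.2, 27.9 and 38.3 CPM outside it (log2 fold change 1.52 ± 0.15). Slc2a1 followed with 1.39 ± 0.19, Hif1a with 1.29 ± 0.13, Pkm, the last enzyme of glycolysis, with 1.02 ± 0.09 and Pgk1 with 0.99 ± 0.12. The hearts differed widely here: the summed members stood at 9565 CPM in infarct 1, 5897 in infarct 2 and 4599 in infarct 3. Aldoa, Bnip3, Ero1l and Egln3 did not pass the test in monocytes. Leaving out a heart gave 8 to 16 members.

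Macrophages high in Gpnmb, a lipid-associated surface gene, were divided by the matrix gene Spp1. In the Spp1-high gate 9 members were higher and 2 lower, with 11.0% and 13.1% of all genes, and leaving out 1 heart gave 9 to 14 higher and 1 to 5 lower members, the 14 without infarct 1. Hk3 had the largest difference, at 43.9, 33.6 and 40.0 CPM against 17.8, 14.9 and 15.1 CPM (log2 fold change 1.41 ± 0.09). Pgam1 followed with 0.81 ± 0.08, Ndrg1 with 0.81 ± 0.11, Aldoa with 0.77 ± 0.06 and Pkm with 0.71 ± 0.06. Slc16a3 and Pfkfb3 were the lower members, with log2 fold changes of -0.63 ± 0.16 and -0.54 ± 0.09. Aldoa lay between 625 and 654 CPM in this gate in all hearts, against 358 to 481 CPM in other cells.

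In the Spp1-low Gpnmb-high gate 3 members were higher and 8 lower, with 6.77% and 9.96% of all genes. Ndrg1 (0.65 ± 0.12, higher in 2 of 3 hearts), Bnip3l (0.30 ± 0.05) and Aldoa (0.29 ± 0.06) were higher. Egln3 (-2.13 ± 0.37, on 21 UMIs and lower in 2 of 3 hearts), Slc16a3 (-1.09 ± 0.16), Slc2a1 (-0.57 ± 0.12), Hif1a (-0.46 ± 0.07) and Higd1a (-0.46 ± 0.09), which encodes a mitochondrial protein, were the lowest. The lower count rested on the choice of hearts, at 17 without infarct 2 and 1 without infarct 3, where no member was higher.

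The large gate of MHC-II-high, Gpnmb-low macrophages, with 3216 to 3744 cells per infarct heart, ran the other way from the Saa3 Arg1 gate. No member was higher and 23 were lower, where 9.11% of genes were higher and 11.4% lower. The differences were small. Pgk1 stood at 122 ± 44.5 CPM against 208 CPM on average (log2 fold change -0.67 ± 0.02), Slc16a3 had -0.61 ± 0.05, Slc2a1 -0.57 ± 0.07 and Egln3 -1.01 ± 0.13, each lower in 3 of 3 hearts. Adm had the largest log2 fold change, -2.48 ± 0.37, on 9 UMIs in the gate. With infarct 1 or infarct 3 left out 17 members were lower, and without infarct 1 a single member was higher.

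In the gate of remaining macrophages, which met no subtype marker, 1 member was higher and 11 were lower, with 8.54% and 11.3% of all genes. Mxi1 was the higher member (0.48 ± 0.05), and Slc16a3 (-0.81 ± 0.14), Pgk1 (-0.59 ± 0.10), Ldha (-0.56 ± 0.07), Pfkp (-0.45 ± 0.06) and Hif1a (-0.44 ± 0.06) led the lower ones. Without infarct 3 only 3 were lower. Resident macrophages (Lyve1, Cd163, Timd4 and Folr2) had 1 higher member, Pfkfb3 (0.48 ± 0.12), and 3 lower, Ndrg1 (-0.90 ± 0.16), Slc2a1 (-0.60 ± 0.16) and Aldoa (-0.29 ± 0.07), with 5.05% and 6.35% of all genes. Leaving out infarct 1 left 1 lower member and none higher, and leaving out infarct 3 left 2 and none.

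**Figure D3:**
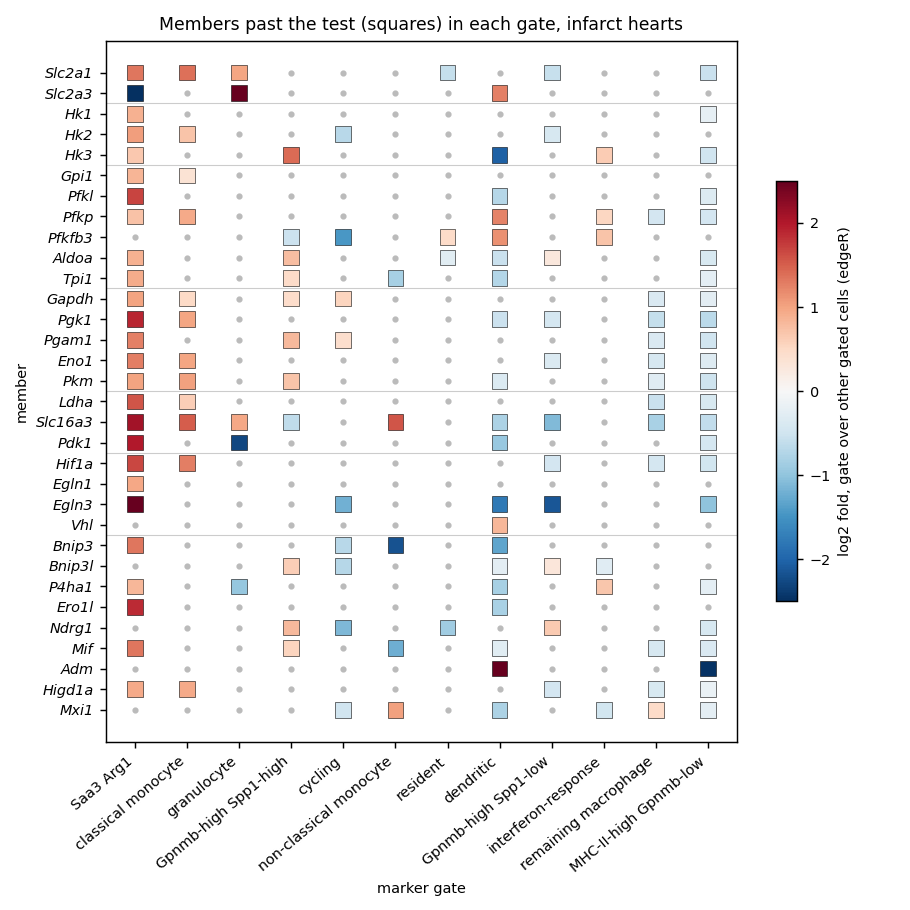
Members (rows, grouped by step) in the 12 gates (columns, in the order of the summed level), infarct hearts. Squares are members past the edgeR test at an adjusted p under 0.01, coloured by log2 fold change of the gate over other gated cells (the scale ends at 2.5 in each direction), and grey points are members that did not pass. The Saa3 Arg1 column held 25 higher members and the MHC-II-high Gpnmb-low column 23 lower ones.

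The dendritic gate, with 173 to 301 cells per infarct heart, had 5 higher and 15 lower members, with 14.5% and 16.2% of all genes. Pfkp stood at 109 ± 23.5 CPM against 47.0 CPM (log2 fold change 1.23 ± 0.08) and Pfkfb3 at 78.0 ± 18.2 CPM against 35.5 CPM (1.15 ± 0.11). Slc2a3 (1.26 ± 0.34) and Vhl (0.84 ± 0.15) were also higher, as was Adm on 13 UMIs. Hk3 (-2.05 ± 0.24), Egln3 (-1.78 ± 0.35, on 16 UMIs), Bnip3 (-1.31 ± 0.14), Pdk1 (-0.94 ± 0.20) and P4ha1, a collagen prolyl hydroxylase (-0.83 ± 0.10), were lower. Leaving out infarct 2 or infarct 3 left 3 higher members. From the comparison list, the enolase isoform Eno3 was higher in dendritic cells, with a log2 fold change of 3.58 ± 0.18.

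The granulocyte gate, with only 49 to 93 cells per infarct heart in a sort that removed Ly6G-positive cells, had 3 higher and 2 lower members, with 3.9% and 6.84% of all genes. Slc2a3 was 29.1 ± 11.7 CPM against 2.84 CPM (3.07 ± 0.57, on 27 UMIs), and Slc2a1 (0.98 ± 0.28) and Slc16a3 (0.97 ± 0.21) were higher too. Pdk1 (-2.28 ± 0.64, on 4 UMIs) and P4ha1 (-0.96 ± 0.25) were lower. With infarct 2 or infarct 3 left out 1 higher and 1 lower member passed, and without infarct 1 none was lower. Non-classical monocytes (26 to 37 cells) had 2 higher members, Slc16a3 (1.58 ± 0.26) and Mxi1 (1.03 ± 0.29), and 3 lower, Bnip3 (-2.18 ± 0.65, on 4 UMIs), Mif (-1.23 ± 0.25) and Tpi1 (-0.83 ± 0.23), with 3.33% and 4.77% of all genes. No member passed without infarct 2, and 1 was lower without infarct 1 or infarct 3.

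Cycling cells, marked by Mki67 and other mitosis genes, had 2 higher members, Gapdh (0.56 ± 0.09) and Pgam1 (0.44 ± 0.11), and 7 lower, led by Pfkfb3 (-1.45 ± 0.12), Egln3 (-1.20 ± 0.30) and Ndrg1 (-1.13 ± 0.12), with 14.8% and 12.4% of all genes. The counts depended on single hearts, at 9 higher and 4 lower without infarct 1, 0 and 3 without infarct 2, and 3 and 12 without infarct 3. In the interferon-response gate Pfkfb3 (0.72 ± 0.10), P4ha1 (0.70 ± 0.09), Hk3 (0.63 ± 0.10) and Pfkp (0.54 ± 0.08) were higher and Mxi1 (-0.47 ± 0.09) and Bnip3l (-0.29 ± 0.06) lower, with 8.01% and 3.6% of all genes. Without infarct 1 the counts were 7 and 1, and without infarct 3, 4 and 6.

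Infarct and baseline cells were also set side by side within gates, again without a test. In classical monocytes 15 of 30 members with at least 10 CPM lay above baseline by the 1.5-fold rule and 1 below, where 9.8% of genes lay above and 20.6% below. Slc2a1 stood there at 14.7 CPM at baseline and at 103, 49.5 and 26.8 CPM in the infarct hearts, and Mif at 72.3 CPM against 300 ± 188 CPM. In resident macrophages 15 of 29 lay above and none below, with 7.61% and 20.2% of genes. That gate held 3181 cells at baseline and 175, 217 and 243 in the infarct hearts. Its infarct cells averaged 787 CPM of Folr2, 240 of Lyve1, 195 of Cd163 and 11.5 of Timd4. Over all baseline cells, in the gate or not, these markers stood at 344, 413, 428 and 54.3 CPM. The gate took in 35.4% of baseline cells with at least 2000 UMIs. Marker levels in the baseline cells of the gate alone are not given, so these values do not compare the gate between groups. Whether the gate held the same kind of cell in both groups was not tested. Hif1a stood in the resident gate at 68.0 CPM at baseline and at 133 ± 37.8 CPM after infarction. In MHC-II-high, Gpnmb-low macrophages, the most numerous gate of the infarct, 10 of 29 lay above and 1 below, with 6.04% and 21.6% of genes. Slc2a1 stood there at 10.1 CPM at baseline against 18.1 ± 8.32 CPM, and Hk1 at 33.6 against 21.4 ± 3.36 CPM. The other gates differed among themselves. In the remaining macrophages 3 of 29 lay above and 3 below, with 6.97% and 27.6% of genes, and in the dendritic gate 2 of 30 above and 4 below, with 8.9% and 21.5%. In the Gpnmb-high Spp1-high gate 3 of 29 lay above and 7 below, with 12.6% and 23.2% of genes, and in the Gpnmb-high Spp1-low gate 1 of 29 above and 8 below, with 13.5% and 22.5%. Cycling cells had 15 of 29 above and 2 below (9.38% and 22.8%), the interferon-response gate 9 of 29 and 2 (9.27% and 28.4%), non-classical monocytes 8 of 28 and none (11.8% and 14.1%), and the granulocyte gate 13 of 30 and 5 (29.3% and 26.2%).

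The last comparison related the members to Vegfa, which encodes the angiogenic factor VEGF-A and is a target of HIF-1. Detection of a rare transcript rises with depth, so each monocyte or macrophage with at least 2000 UMIs was reduced at random to 2000 UMIs. Of these cells 235 of 8602 (2.73%, 95% exact binomial interval 2.398 to 3.099) had a Vegfa UMI in infarct 1, 169 of 9417 (1.79%) in infarct 2, 251 of 8297 (3.03%) in infarct 3 and 30 of 8153 (0.368%) at baseline. Without thinning the shares were 9.30%, 5.22%, 9.04% and 1.32%. In B cells, which served as a gauge of free RNA at the same 2000 UMIs, 0 of 104 cells at baseline, 0 of 27 and 0 of 16 in infarct 1 and 2, and 2 of 65 in infarct 3 (3.08%, interval 0.375 to 10.7) had a Vegfa UMI. A count of 0 of these cells allowed a share of up to 3.48%, 12.8% and 20.6% (exact upper bounds), so that the overall shares of the infarct hearts were not above what the B cells allowed. The shares in the Saa3 Arg1 gate of infarct 1 and infarct 3 were likewise within the intervals of the B cells. The share was highest in the Saa3 Arg1 gate (9.32%, 22.6% and 8.78%) among monocytes and macrophages of the infarct hearts, followed by classical monocytes (3.99%, 5.15% and 3.71%), and the few granulocytes stood at 12.3%, 12.2% and 18.3%.

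The members' summed UMIs per thinned cell were then used to rank the cells of each library into 4 equal bins, tied cells being assigned at random. In infarct 1 the share of cells with a Vegfa UMI was 0.883% in the lowest bin, 0.977% and 1.81% in the middle bins and 7.26% (interval 6.19 to 8.43) in the highest. In infarct 2 it was 0.637%, 1.02%, 1.15% and 4.38% (3.59 to 5.28), and in infarct 3, 2.22%, 2.22%, 2.60% and 5.06% (4.16 to 6.10). At baseline it was 0.147%, 0.196%, 0.245% and 0.883% (0.524 to 1.39). In every library the highest bin stood above the others, and the intervals of the other 3 bins overlapped within each library. At baseline the interval of the highest bin also overlapped that of the third (0.0797 to 0.572). Without Gapdh the highest bins were at 7.26%, 4.25% and 4.97% in the infarct hearts.

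**Figure D4:**
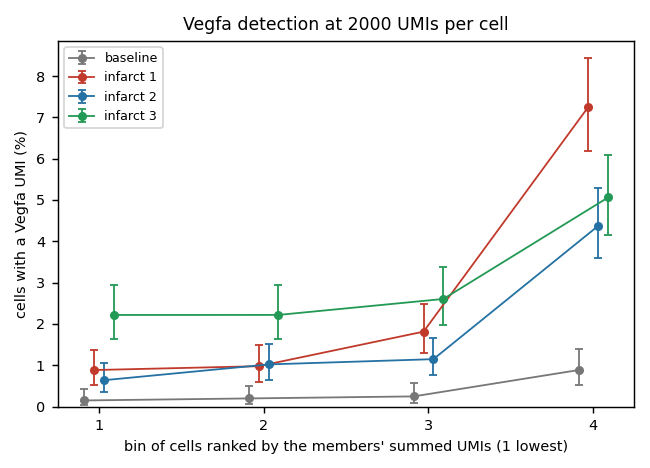
Share of thinned monocytes and macrophages with a Vegfa UMI in bins of cells ranked by the summed UMIs of the 32 members, for each library. Bars are exact 95% binomial intervals and cover counting error only. The share rose mainly in the highest bin, to 7.26%, 4.38% and 5.06% in infarct 1, 2 and 3 and to 0.883% at baseline.

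A higher share in the highest bin was also seen within the Saa3 Arg1 gate, where the share went from 1.60% in the lowest to 18.5% in the highest bin in infarct 1, from 6.08% to 16.2% in infarct 3, and from 18.9% to 36.1% in the 146 cells of infarct 2. The intervals of the lowest and highest bin overlapped in infarct 2 and infarct 3. In MHC-II-high, Gpnmb-low macrophages it went from 1.14% to 4.33%, from 0.534% to 2.35% and from 1.37% to 3.11%, with overlapping intervals in infarct 3. In classical monocytes of infarct 3 it went from 5.22% to 3.51%, against 1.45% to 6.80% in infarct 1 and 3.21% to 5.81% in infarct 2, with overlapping intervals in all 3. In the Gpnmb-high Spp1-low gate it went from 0% to 2.04% in infarct 1, from 1.54% to 1.55% in infarct 2 and from 3.75% to 1.26% in infarct 3. In the Gpnmb-high Spp1-high gate it went from 0.943% to 1.89%, from 0% to 6.67% and from 2.41% to 2.41%, and in the remaining macrophages from 1.17% to 2.11%, from 0.816% to 1.77% and from 2.35% to 5.05%. The intervals of the lowest and highest bin overlapped in every heart of these 3 gates.

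Gene by gene, sums over cells with a Vegfa UMI were tested against sums over cells without, in the 3 infarct hearts. Of 31 members tested 23 were higher and none lower (Adm was too low to be tested), where 2.15% of all 11353 genes tested were higher and 1.18% lower. No member was lower by DESeq2 either. An unadjusted p under 0.05 was found for 26 of the 31 members and for 1632 of all 11353 genes. The median log2 fold change of the members was 0.83, against -0.05 over all genes. Without infarct 1 the count fell to 9, with 1.06% of all genes higher. Without the heart as a block no member and 4 genes in all passed. In 9 other random draws of the thinning 16 to 22 members were higher, with 1.34% to 2.36% of all genes. All 5 genes of lower glycolysis passed, as did 5 of 6 in upper glycolysis, 3 of 4 in oxygen sensing, 2 of 3 in the lactate and pyruvate branch, 6 of 8 other targets tested, and 1 hexokinase (Hk2).

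Egln3 led, at 88.5, 6.18 and 4.14 CPM in cells with a Vegfa UMI and 16.7, 0.786 and 2.96 CPM in cells without (log2 fold change 2.09 ± 0.38), on 44 UMIs. Ero1l stood at 367, 43.3 and 43.5 CPM against 62.2, 23.9 and 28.4 CPM (1.67 ± 0.18), and Bnip3 at 237, 43.3 and 47.7 CPM against 54.6, 24.4 and 26.2 CPM (1.45 ± 0.18). These were higher with Vegfa in every heart, but infarct 1 stood far above the rest, and none of the 3 passed without it.

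Slc2a1 stood at 102, 64.9 and 43.5 CPM against 37.2, 15.7 and 17.8 CPM (1.48 ± 0.21), and Slc16a3 at 268, 111 and 93.2 CPM against 97.6, 29.1 and 39.8 CPM (1.43 ± 0.16). Hif1a stood at 449, 463 and 288 CPM against 194, 124 and 123 CPM (1.36 ± 0.12), and the groups did not overlap for Hif1a or Slc2a1. The share of all genes without overlap was not computed. Pgk1 stood at 741, 321 and 213 CPM against 244, 116 and 139 CPM (1.18 ± 0.12). Each of these 4 passed also with any one heart left out.

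Mif, Pfkp, Hk2, Pgam1 and Egln1 had log2 fold changes of 1.04, 0.97, 0.95, 0.92 and 0.91, and Gapdh, Gpi1 and Higd1a the smallest among those that passed, at 0.50, 0.52 and 0.59. The other 8 tested members did not pass: Pdk1, Hk1, Mxi1, Hk3, Vhl, Pfkfb3, Bnip3l and Slc2a3, of which Pfkfb3 (0.06 ± 0.23), Bnip3l (-0.10 ± 0.14) and Slc2a3 (-0.11 ± 0.86, on 4 UMIs) had the smallest differences. From the comparison list, Ankrd37 (1.54 ± 0.30) and the glycogen gene Pgm2 (1.13 ± 0.31) were among the 3 higher of 34 genes tested, and Slc16a7, which encodes the importer MCT2, was the 1 lower (-1.38 ± 0.35). Immediate-early and heat-shock genes summed to 3952, 4764 and 5986 CPM in cells with a Vegfa UMI against 4430, 4832 and 5144 CPM without, with no common direction, and the cardiomyocyte markers to 6.63, 30.9 and 49.7 CPM against 41.0, 53.8 and 68.9 CPM. Their part in the result was not tested.

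**Figure D5:**
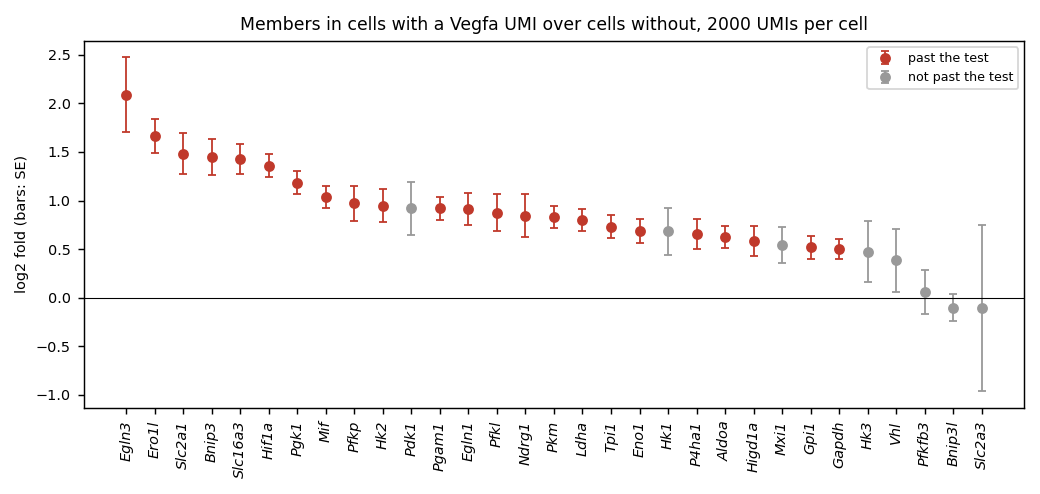
Log2 fold change of each tested member in cells with a Vegfa UMI over cells without (edgeR, 3 infarct hearts, each cell at 2000 UMIs), with its SE. Red points passed at an adjusted p under 0.01 and grey points did not. The 23 members that passed ranged from 0.50 (Gapdh) to 2.09 (Egln3).

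Cells with a Vegfa UMI lay more often in the Saa3 Arg1 and classical monocyte gates, where the members were high. As a description, the cells without Vegfa were weighted to the same mix of gates. The summed members of the Vegfa-positive cells were then 1.38 times the weighted level on average, against 1.84 times unweighted. Of 29 members with at least 10 CPM, 24 stayed above the weighted level in all 3 hearts (26 unweighted). The share of all genes above the weighted level was not computed. Ero1l was 2.44 times, Slc2a1 2.19 times and Bnip3 2.11 times the weighted level, and Gapdh 1.19 times. Without infarct 1 these ratios were 1.23 for Ero1l, 2.62 for Slc2a1, 1.54 for Bnip3 and 1.14 for Gapdh, and 1.27 for the sum.

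Fits within subsets of gates had fewer Vegfa-positive cells and called fewer genes. Without the Saa3 Arg1 and monocyte gates 6 members were higher, with 0.701% of all genes. Within the Saa3 Arg1 gate alone Slc2a1, Bnip3 and Ero1l passed of 28 tested, with 0.491% of all genes, and 28 of 28 log2 fold changes were above 0. Within the MHC-II-high Gpnmb-low gate alone Pgk1, Mif, Pkm, Hif1a and Pgam1 passed of 31, with 0.366% of all genes. In the Gpnmb-high gates together none of 29 members passed, with 0.0411% of all 7305 genes higher, and the median log2 fold change was -0.19. An unadjusted p under 0.05 was found for 3 of the 29 and for 624 of all genes. There 10 of 29 were above 0, against 28 of 28 in the Saa3 Arg1 gate, a difference that was not tested. The share of all genes above 0 was not computed for either fit, so a shift common to all genes was not set apart. Within classical monocytes and within the remaining macrophages none passed by edgeR, with 0.0834% and 0.165% of all genes higher. There 4 of 30 and 5 of 29 members had an unadjusted p under 0.05, as had 447 of 5992 and 652 of 9064 genes.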

How the data were processed

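Cells of 4 libraries (1 baseline, 3 infarct) were analysed from the UMI counts per gene and cell that the authors deposited, made by aligning reads to mm10 with Cell Ranger (3.0.1 in the submitters' processing notes, 3.1.0 per the file headers). Here cells with 500 to 40000 UMIs and more than 200 genes were kept, and mitochondrial genes were left out of totals. Cells with at least 2000 UMIs were gated by summed marker UMIs per 10000, counts were summed per library and gate, and edgeR 4.0.16 (R 4.3.3, TMM, filterByExpr, quasi-likelihood test, library as a block, Benjamini-Hochberg adjusted p under 0.01) compared each gate with all other gated cells, and cells with a Vegfa UMI with cells without after thinning to 2000 UMIs. DESeq2 1.42.0 was an alternative. Both sums of a test came from the same heart, and their deviations from the group means correlated (r = 0.295 to 0.602 for the Saa3 Arg1 gate over 2943 genes, 0.470 to 0.663 for Vegfa over 2925 genes). Infarct and baseline were compared by a rule: all 3 infarct libraries on one side, a mean 1.5-fold away and at least 10 CPM in a group. The 3 infarct libraries are separate hearts. Scrublet by its own cut called doublets in 1 library alone (197 cells), so the highest 8.10% to 8.63% of scores were removed as an alternative. The fits were tested on simulated data. Python 3.11.15, scanpy 1.11.5 and scipy 1.17.1 were used.

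All 32 members were reported. Per comparison up to 5 higher and 5 lower members were named with values, and up to 3 comparison genes per direction. The member rule reads no measured value, but the list of members, the gates and the other lists were put together with earlier results of these data known. The result of a comparison gene is not reported here.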

Additional observations from a re-analysis of the deposited data

Results flagged for a closer look

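In both Gpnmb-high macrophage gates the summed members stood lower in each of the 3 infarct hearts than in the baseline library, while in resident macrophages, classical monocytes and cycling cells they stood higher in each. The log2 ratio of the infarct mean to baseline was -0.37 in the Gpnmb-high Spp1-high gate (6906 CPM at baseline, 5343 ± 331 CPM in infarct hearts) and -0.48 in the Gpnmb-high Spp1-low gate (5459 CPM and 3910 ± 250 CPM). The baseline sums rested on 31 and 32 cells. In resident macrophages the sum was 2511 CPM at baseline and 4418 ± 1081 CPM after infarction, in classical monocytes 3580 and 6687 ± 2576 CPM, and in cycling cells 3304 and 5290 ± 189 CPM. The difference between gates was not tested.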

How the results depend on the processing

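Without the replicate block, that is with each heart's pairing ignored, 34 in place of 67 member and gate pairs were higher and 9 in place of 77 lower, and 0 in place of 23 members were higher with a Vegfa UMI. Leaving out 1 heart gave 57 to 80 higher and 55 to 82 lower pairs, 9 to 23 members higher with Vegfa, and 7 to 16 above and 0 to 1 below baseline. Members higher with Vegfa numbered 9 when thinned to 1000 UMIs, 15 without thinning, 0 in the Gpnmb-high gates, 6 without the Saa3 Arg1 and monocyte gates and, in subsets chosen after seeing the data, 3 in the Saa3 Arg1 gate, 5 in the MHC-II-high gate, 0 in remaining macrophages and 0 in classical monocytes, where fewer cells entered. The shares of all genes higher were, in the same order, 0.639%, 0.736%, 0.0411%, 0.701%, 0.491%, 0.366%, 0.165% and 0.0834%. A 2-fold rule left 3 members above baseline, with 2.35% of all genes. No minimum CPM gave 2 members below, with 33.3% of all 21325 genes. Vegfa differences changed sign, none past the threshold, in the Gpnmb-high gates for Mif (-0.21), Pfkp (-0.57), Hk2 (-0.051), Pgam1 (-0.37), Egln1 (-0.19), Ndrg1 (-0.53), Pkm (-0.15), Ldha (-0.22), Eno1 (-0.23), Aldoa (-0.21), Gpi1 (-0.39) and Gapdh (-0.31), in classical monocytes for Egln3 (-0.96), Pkm (-0.11) and Higd1a (-0.41), in remaining macrophages for Tpi1 (-0.018), P4ha1 (-0.27) and Gapdh (-0.013), and in the MHC-II-high gate for Gpi1 (-0.090). The cause was not tested. Of the values of single members under alternatives, 1397 kept direction and side of the threshold, 368 kept direction alone, 5 moved and 19 changed sign. With 4 to 27 UMIs in a gate, Slc2a3, Pdk1, Bnip3 and Adm were limited by depth.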
